A study of Anguilla anguilla with 12 samples.

Results

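Sialic acids are acidic sugars that cap the glycans of cell surfaces and secreted proteins. They are made from UDP-N-acetylglucosamine by GNE, NANS and NANP, activated to a CMP sugar by CMAS, carried into the Golgi by SLC35A1 and placed on glycans by sialyltransferases. CMAH turns the activated sugar N-acetylneuraminic acid into N-glycolylneuraminic acid, the ST8 enzymes add a sialic acid to another sialic acid, and NPL breaks free sialic acid down. In fish eggs sialic acid is known from the cortical alveoli, the vesicles below the egg membrane, whose polysialoglycoproteins were described in rainbow trout.

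The 5 genes described here were chosen by name: LOC118231256, annotated as GNE-like, LOC118221204 and LOC118221926, both CMAH-like, LOC118222571, an alpha-2,8-sialyltransferase annotated as 8F-like, and npl. All 5 were among the 31061 genes listed, and another 53 genes of the list belong to the same pathway by their names. The 5 were picked with values of these libraries known, so their differences between eggs and oocytes are given as a description, with no test.

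The study asked whether progesterone (P) can stand in for DHP (17α,20β-dihydroxy-4-pregnen-3-one), the steroid that triggers final oocyte maturation in eels, for inducing egg release in European eel (Anguilla anguilla). In fish, DHP is formed out of P by addition of a hydroxyl group and reduction of a ketone to a hydroxyl. RNA was sequenced from 4 groups of 3 libraries: eggs stripped after P injection (libraries 2, 6 and 10), oocytes sampled before P injection (1, 5 and 9), eggs stripped after DHP injection (4, 8 and 12) and oocytes sampled before DHP injection (3, 7 and 11). All came from females labelled WT that had been feminized with estradiol as elvers and matured with weekly injections of carp pituitary extract, 3 females per steroid, and both steroids were given at the same dose per body weight. The paper's protocol for feminized females also had a simulated migration, and then an implant of 17-methyltestosterone and estradiol, before the weekly injections. No source used here states ages. Each oocyte library pooled oocytes picked from tissue taken with a cannula. In the study's culture experiments, whose tissue was taken by needle, sections from 1 female showed a mix of oocytes with and without their follicle cells. These are the theca and granulosa cells that wrap an oocyte until ovulation. The paper describes no such sections of the sequenced samples. Each library held between 6612347 and 9903122 counted fragments.

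Levels are given as normalized counts, which are fragment counts scaled by TMM (trimmed mean of M values) to the mean effective library size. They are not divided by gene length and thus compare libraries for 1 gene, not genes with each other. Oocytes and eggs both held RNA of the germ cell marker list, with a summed level of 9971 to 11209 normalized counts in eggs after P, 22776 to 23635 in oocytes before P, 9872 to 16960 in eggs after DHP and 18700 to 25499 in oocytes before DHP. The summed level of 14 follicle cell markers was 1628 to 2659 in eggs after P, 10308 to 14338 in oocytes before P, 471 to 1551 in eggs after DHP and 4997 to 9768 in oocytes before DHP. In eggs most of that sum was 1 gene, LOC118214003, annotated as a 3 beta-hydroxysteroid dehydrogenase-like enzyme, and the other 13 markers summed to 92.1 to 184 in eggs after P, 9669 to 13379 in oocytes before P, 90.4 to 295 in eggs after DHP and 4565 to 9340 in oocytes before DHP. In RNA from whole samples, fewer cells of a type and less RNA per cell cannot be told apart. The libraries were made from poly(A) RNA, so all levels cover only RNA captured by its poly(A) tail.

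LOC118231256 (chr7:26328957-26342563 in the assembly fAngAng1.pri) is annotated as a bifunctional UDP-N-acetylglucosamine 2-epimerase and N-acetylmannosamine kinase, the activity that starts sialic acid synthesis. Eggs after P held 0, 0 and 0 normalized counts of it, against 1173, 1080 and 904 in oocytes before P. In eggs after DHP it had 0, 18.4 and 0 normalized counts, against 975, 3346 and 318 in oocytes before DHP. All 6 egg libraries lay below all 6 oocyte libraries, and the spread among oocytes before DHP was far wider than among those before P. With 0 counts allowing up to 3 over the group, the level was at least 844-fold lower in eggs after P than in oocytes before P. In eggs after DHP it was 231-fold lower than in oocytes before DHP, with a 95% counting interval of 138 to 423 (exact, from 14 and 4898 counts). Counting error is all that such intervals and bounds cover. The second value was at least 721-fold without library 8, 108-fold without library 7 and 146-fold without library 4.

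LOC118221204 (chr2:76295670-76349548) and LOC118221926 (chr2:76418185-76457018) are both annotated as CMP-N-acetylneuraminic acid hydroxylase-like, the enzyme that makes N-glycolylneuraminic acid and that humans have lost. LOC118221204 had 0, 0 and 0 normalized counts in eggs after P, against 664.5, 206 and 793 in oocytes before P. It had 0, 5.26 and 0 in eggs after DHP, against 365, 1063 and 430 in oocytes before DHP. Eggs and oocytes of this gene did not overlap after either steroid, and the level was at least 413-fold lower in eggs after P and 334-fold lower in eggs after DHP (95% counting interval 130 to 1226, from 4 and 2019 counts). LOC118221926 had 0, 0 and 0 normalized counts in eggs after P, against 1042, 330 and 3549 in oocytes before P. It had 0, 5.26 and 0 in eggs after DHP, against 529, 1510 and 414 in oocytes before DHP. Again no egg library reached an oocyte library. The level was at least 1155-fold lower in eggs after P, a bound that became 520-fold without library 9 and 1735-fold without library 5. It was 438-fold lower in eggs after DHP (171 to 1607, from 4 and 2647 counts), and 271-fold without library 7. Without library 4 the values after DHP were 211-fold for LOC118221204 and 277-fold for LOC118221926.

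LOC118222571 (chr3:58260335-58276075) is annotated as alpha-2,8-sialyltransferase 8F-like. In mammals ST8SIA6, the enzyme after which the F type is named, adds sialic acid to the sialic acid of short O-glycans. The gene had 0, 0 and 0 normalized counts in eggs after P, against 2231, 2061 and 3914 in oocytes before P. It had 0, 97.3 and 0 in eggs after DHP, against 4925, 3938 and 2169 in oocytes before DHP. The groups did not overlap, and only library 8 among the eggs held any count. The level was at least 2089-fold lower in eggs after P and 114-fold lower in eggs after DHP (91.0 to 146, from 74 and 12797 counts), which became at least 1883-fold without library 8 and 72.3-fold without library 4. Without library 2, fewer egg fragments stood behind the 0 counts and the bounds after P became 537-fold for LOC118231256, 262-fold for LOC118221204, 734-fold for LOC118221926 and 1327-fold for LOC118222571.

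**Figure D1:**
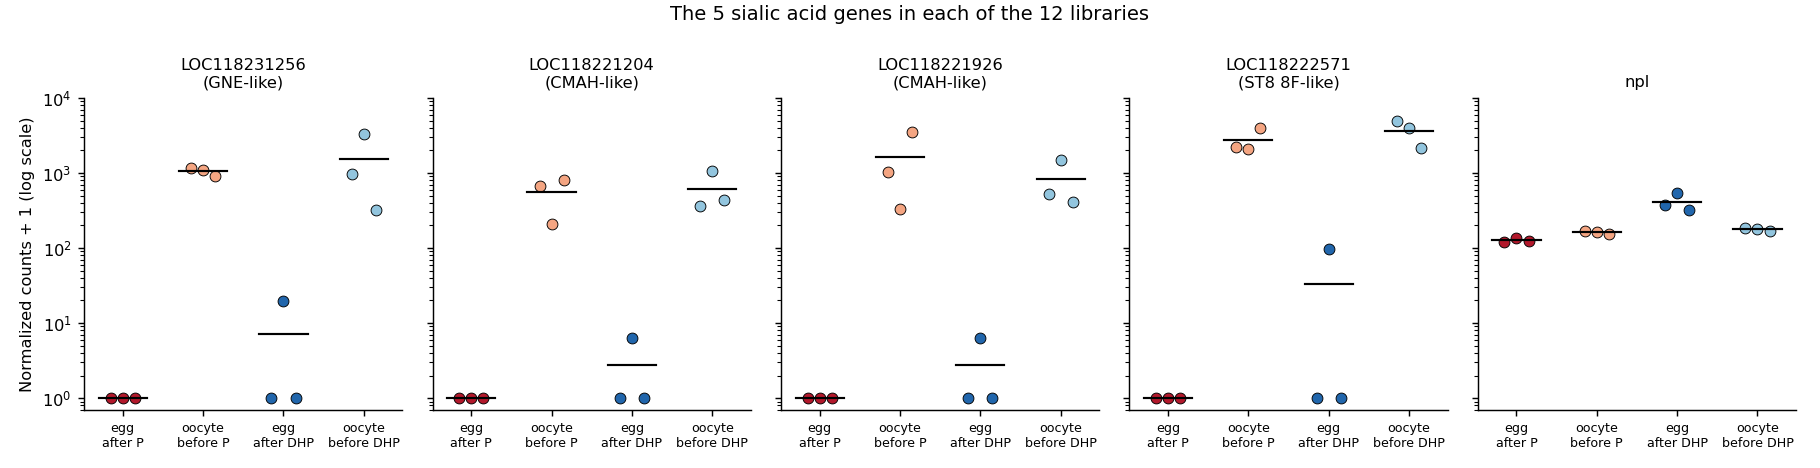
Normalized counts plus 1 (log scale) of the 5 genes in each of the 12 libraries, with 1 point per library, libraries in number order within a group and a line at the group mean. LOC118231256, LOC118221204, LOC118221926 and LOC118222571 sit at 0 counts in 5 of 6 egg libraries, while npl lies between 120 and 542 normalized counts in every library.

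npl (chr4:8131419-8142557) encodes N-acetylneuraminate pyruvate lyase, which splits free sialic acid into N-acetylmannosamine and pyruvate. It had 120, 137 and 122 normalized counts in eggs after P, against 168, 161 and 154 in oocytes before P. It had 370, 542 and 322 in eggs after DHP, against 182, 180 and 167 in oocytes before DHP. Of the 5 genes it was the only one counted in every library, and its order of group means was eggs after DHP (411 ± 116, SD, n = 3), oocytes before DHP (176 ± 7.86), oocytes before P (161 ± 7.33) and eggs after P (126 ± 9.05). The oocyte groups overlapped, and each of the other neighbours in that order was separated. The log2 fold change was -0.37 ± 0.33 (SE) in eggs after P over oocytes before P, and 1.14 ± 0.38 in eggs after DHP over oocytes before DHP. With library totals in place of TMM these values were -1.12 and 0.53, and under that scaling the median of all genes tested was -1.01 after P and -0.80 after DHP, against -0.26 and -0.20 with TMM.

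Among all genes tested, the groups did not overlap with eggs lower for 36.7% after P and 27.3% after DHP, and with eggs higher for 28.1% after P and 23.4% after DHP. All 5 genes were lower in eggs after P without overlap, and 4 were lower and npl higher in eggs after DHP. Since the genes were chosen with these values in view, nothing is read from the counts.

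Library 8, an egg library after DHP, stood apart from the other egg libraries. It held the only egg counts of the 4 genes that were otherwise at 0 in eggs, with 14 counts of LOC118231256, 4 of LOC118221204, 4 of LOC118221926 and 74 of LOC118222571. Of the 10 follicle cell markers with at least 50 normalized counts in oocytes before the same steroid, 2 were at 0 counts in library 8, against 6 or 7 in each other egg library, and their median level was 1.94% of the oocyte mean in library 8 and 0% in each other egg library. Among the markers of blood and vessels the median was 8.08% of the oocyte mean in library 8, and between 0.138% and 3.10% in the other egg libraries. The members of that list went different ways. acta2 was at 5.71% and col1a1a at 10.8% in library 8, against at most 0.390% and 0.638% in the other egg libraries. cdh5 was at 4.84% in library 8, against 44.0%, 57.5% and 52.3% in libraries 6, 10 and 12. lcp1 was at 34.4% in library 8, against 64.8% and 58.1% in libraries 10 and 12. The part of follicle, blood or vessel cells in the values of library 8 was not tested.

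**Figure D2:**
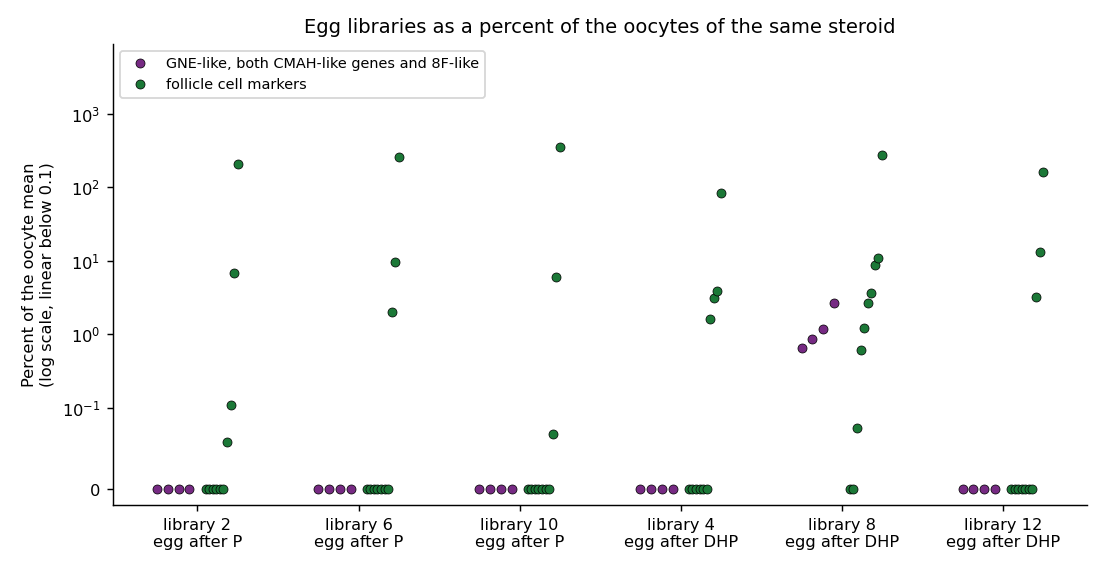
Level in each egg library as a percent of the mean of the oocytes before the same steroid (log scale, linear below 0.1), for LOC118231256, LOC118221204, LOC118221926 and LOC118222571 and for the 10 follicle cell markers. Each point is 1 gene, and library 8 is the only egg library in which the 4 genes lie above 0.

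Most follicle cell markers were also lower in eggs. After P, 10 of the 12 markers tested were lower and 1 was higher (edgeR, adjusted p under 0.01), against 22.7% lower and 17.9% higher of all genes. After DHP, 8 of the 10 tested were lower, 2 were not called and none was higher, against 6.22% lower and 7.35% higher of all genes. LOC118214003 went the other way in level, with a mean of 1997 normalized counts in eggs after P, against 725 in oocytes before P, and 789 in eggs after DHP, against 454 in oocytes before DHP. foxl2a, a transcription factor of granulosa cells, had no count in eggs after P and a level of 675.9 ± 79.2 in oocytes before P, and averaged 4.82 ± 8.35 in eggs after DHP, against 546 ± 268 in oocytes before DHP (SD, n = 3 each). The part of follicle cells in the levels of the 4 genes was not tested.

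Over the 12 libraries, the genes most like each of the 5 were taken by Pearson's r of log2(CPM + 1), as a description. LOC118231256 was most like LOC118233042, an aquaporin-4-like gene (r = 0.993), smtnl (0.991) and foxl2a (0.990). LOC118221204 was most like f10, which encodes coagulation factor X (0.998), LOC118225582, a ubiquitin-60S ribosomal protein L40 gene (0.997), and the neighbouring CMAH-like gene LOC118221927 (0.995). LOC118221926 was most like LOC118235381 (0.997), bicdl1 (0.995) and LOC118236701 (0.994). LOC118222571 was most like gata4, a transcription factor of follicle cells (0.998), LOC118235591, a progesterone receptor-like gene (0.998), and rpl3, a ribosomal protein gene (0.996). Between 459 and 689 of 16890 genes had r above 0.95 with each of these 4, where the 12 libraries are 6 eggs and 6 oocytes of the same females. npl had no gene above 0.95, and its closest was LOC118225212, a 5-lipoxygenase-like gene (0.845).

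The steroids were compared between eggs, between oocytes and in the change from oocyte to egg. npl was lower in eggs after P than in eggs after DHP, with a log2 difference of -1.65 ± 0.38 (SE) and no overlap between the 3 libraries of each group, as for 5.71% of all genes tested. The test over all genes did not call it (edgeR, adjusted p = 0.984, and 0.0115 to 1.00 over the alternatives, the lowest from DESeq2). Its 95% interval was -2.48 to -0.77 (limma-voom), which is not adjusted for the number of genes tested, unlike these p-values. The difference between the steroids in the change of npl from oocyte to egg was -1.57 ± 0.45 on the log2 scale, given with no test, as it is made of the changes that were known when the genes were chosen. Which values of npl led to its choice is not recorded, so the difference between eggs may also have been in view. The 4 other genes had too few counts in eggs for a test between eggs after P and eggs after DHP.

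Before injection, the oocytes of both treatments held the 5 genes at levels that overlapped for each of them, where 7.84% of all genes tested did not overlap. None of the 5 was called between oocytes before DHP and oocytes before P, where no gene of all tested was called (0%, edgeR, adjusted p = 0.999 for each of the 5, with 494 genes at an unadjusted p under 0.05 but none of the 5, and 0.0619% called by DESeq2). The log2 differences were 0.54 ± 0.64 for LOC118231256, 0.16 ± 0.53 for LOC118221204, -1.003 ± 0.748 for LOC118221926, 0.43 ± 0.35 for LOC118222571 and 0.13 ± 0.31 for npl. Their 95% intervals (limma-voom) reached from -1.52 to 1.37 for LOC118231256, from -2.31 to 1.10 for LOC118221926 and from -0.55 to 0.82 for npl. Without library 7, which held 3346 normalized counts of LOC118231256, the first value was -0.69, and without library 9 that of LOC118221926 was 0.24.

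The other 53 genes of the pathway were listed by name and product, with earlier results of these data known, and those with enough counts were tested in every comparison. In eggs after P, 6 were higher, 15 were lower and 18 were not called among 39 tested, against 40.6% called of all genes (17.9% higher and 22.7% lower). In eggs after DHP, 1 was higher, 10 were lower and 28 were not called among 39 tested, against 13.6% called of all genes (7.35% higher and 6.22% lower). Over the list, the log2 fold changes had a median of -0.63 after P and -1.22 after DHP, beside -0.26 and -0.20 over all genes tested. With library totals the split after P was 2 higher and 16 lower. Of all 15348 genes tested, 1295 were higher and 5205 lower with library totals, against 2744 and 3483 with TMM. The calls of gne (log2 1.41, adjusted p = 0.0514), LOC118235090 (0.65, adjusted p = 0.125), st3gal3b (0.72, adjusted p = 0.0624) and st3gal8 (1.23, adjusted p = 0.0108) ended under that scaling. Of the 15 and 10 lower genes, 9 were shared, and the 1 gene higher after DHP was also higher after P. How many calls the steroids shared over all genes was not counted, so nothing is read from this overlap. The count after P was 13 without library 6 and 14 without library 10. Of all genes, 2126 were then higher and 2497 lower of 16407, and 2240 and 2783 of 16570. The count after DHP was 3 without library 7, 4 without library 12, and 7 without library 4 or library 11. Calls of all genes after DHP fell as well, from 1114 higher and 943 lower of 15149. They were 65 and 127 of 15986 without library 7, and 65 and 57 of 16356 without library 12. Without library 4 they were 559 and 218 of 16149, and without library 11 they were 124 and 241 of 15806. In the DHP comparison 3 of 11 calls, and in the P comparison 13 of 21, stayed whichever library was left out, a share not counted for all genes. The calls of nansa (without library 1, 6, 9 or 10), LOC118235090 (1, 5, 6 or 10), st3gal3b (1, 6 or 10) and ctsa (6 or 9) after P were lost in that way. After DHP those of cmasa (4, 7 or 12), LOC118221630 and LOC118220432 (7 or 12), slc17a5 (7), LOC118219460 (7, 11 or 12) and st6galnac6 (any but 8) were lost.

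**Figure D3:**
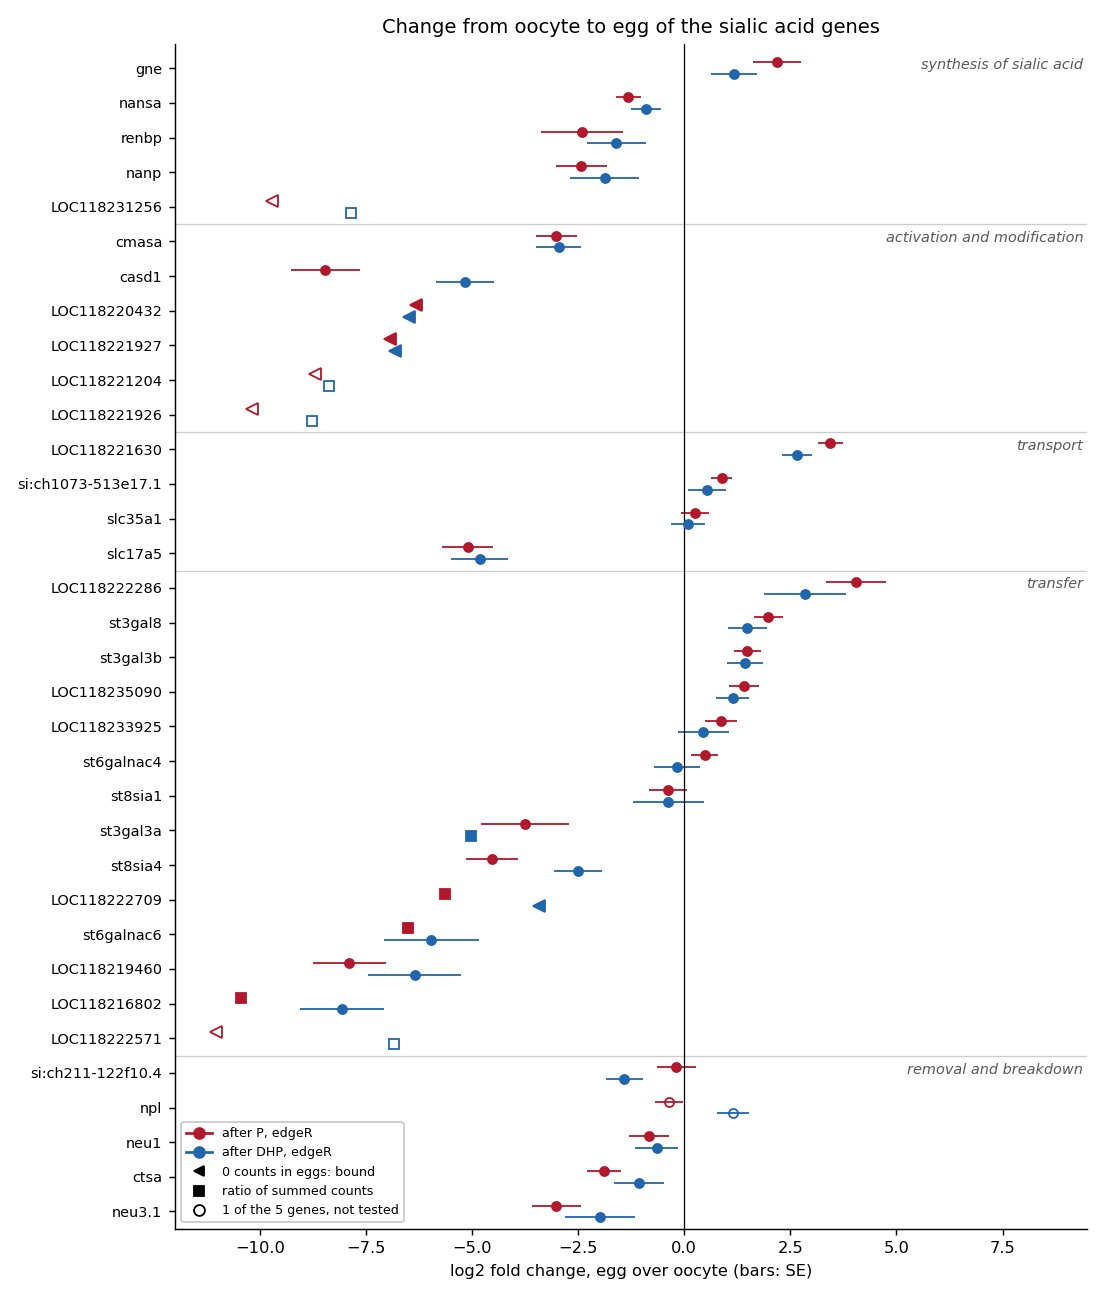
log2 fold change of eggs over oocytes for the 5 genes (open symbols) and the pathway genes that averaged at least 50 normalized counts in a group, ordered by role. Circles are edgeR estimates with their SE, triangles are bounds for genes with 0 counts in the eggs and squares are ratios of summed counts. LOC118222571 lies farthest left after P, at least 2089-fold lower, and LOC118222286 farthest right, at 4.04.

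Of the genes that make sialic acid, gne was the one called higher after P. gne (chr5:62671554-62784027) averaged 543.7 ± 252.5 normalized counts in eggs after P, against 118 ± 71.5 in oocytes before P, and rose (log2 2.18 ± 0.57, adjusted p = 0.00842), a call that stayed in 1 of the 6 fits without 1 library. It averaged 387 ± 120 in eggs after DHP, against 164 ± 91.7 in oocytes before DHP, and was not called (1.17 ± 0.54, adjusted p = 0.119). nansa, which encodes the sialic acid synthase and lies near gne on chromosome 5, fell in eggs after P (-1.32 ± 0.30, adjusted p = 0.00380), and was at -0.90 ± 0.35 after DHP (adjusted p = 0.0693). nanp, the phosphatase that finishes the synthesis, fell after P (-2.42 ± 0.60, adjusted p = 0.00668), with the call lost without any 1 library, and was at -1.88 ± 0.80 after DHP (adjusted p = 0.0974). renbp, an epimerase that interconverts the N-acetylated sugars upstream, was at -2.42 ± 0.97 after P (adjusted p = 0.0554) and -1.61 ± 0.69 after DHP (adjusted p = 0.0996). With the libraries paired, renbp was called after P (-2.93 ± 0.80, adjusted p = 0.00981), where 26.6% of all genes were called lower.

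Among the genes of activation and modification, 5 of 7 tested were lower after P and 4 after DHP, and none was higher. Of all genes tested, 22.7% were lower and 17.9% higher after P, and 6.22% lower and 7.35% higher after DHP. cmasa, which makes the CMP sugar, averaged 500 ± 292 normalized counts in eggs after P, against 4003 ± 1914 in oocytes before P (-3.02 ± 0.48, adjusted p = 0.000574). It averaged 496 ± 163 in eggs after DHP, against 3694 ± 2261 in oocytes before DHP (-2.96 ± 0.53, adjusted p = 0.00450). casd1, which encodes a sialic acid O-acetyltransferase, fell after P (-8.45 ± 0.82, adjusted p = 4.36e-05, with all 4 egg counts in library 2 and at least 294-fold lower without it) and after DHP (-5.17 ± 0.68, adjusted p = 0.00202). Both other CMAH-like genes were at 0 counts in all 6 egg libraries. LOC118221927 averaged 164 ± 90.1 normalized counts in oocytes before P and 152 ± 51.1 in oocytes before DHP, which makes it at least 123-fold lower in eggs after P (adjusted p = 0.000235) and at least 113-fold lower in eggs after DHP (adjusted p = 0.00191). LOC118220432 averaged 94.1 ± 60.7 and 117 ± 50.8 in the same oocytes, and was at least 79.9-fold and 89.7-fold lower (adjusted p = 0.000717 and 0.00229). With less depth behind the 0 counts, the bounds without library 2 were 77.9-fold for LOC118221927 and 50.8-fold for LOC118220432 after P, and without library 4 they were 71.6-fold and 56.7-fold after DHP.

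The CMAH-like genes LOC118221204, LOC118221927, LOC118221926 and LOC118220432 follow each other in this order over 187.5 kb of chromosome 2, with no other listed gene between them. All 4 had at most 4 counts in any egg library. The genes on both sides kept RNA in eggs. kif19, 17.3 kb before the first, averaged 29.0 normalized counts in eggs after P, against 98.1 in oocytes before P, and 27.1 in eggs after DHP, against 113 in oocytes before DHP. LOC118221332, a GIPC1-like gene 206.7 kb from the start of the first, averaged 189 in eggs after P, against 866 in oocytes before P, and 285 in eggs after DHP, against 677 in oocytes before DHP. As neighbouring genes with like names may share sequence, the split of fragments between the 4 copies is uncertain. The handling of reads that align at several places is stated in no source used here. Its part in the counts of the 4 genes, those at 0 among them, was not tested.

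**Figure D4:**
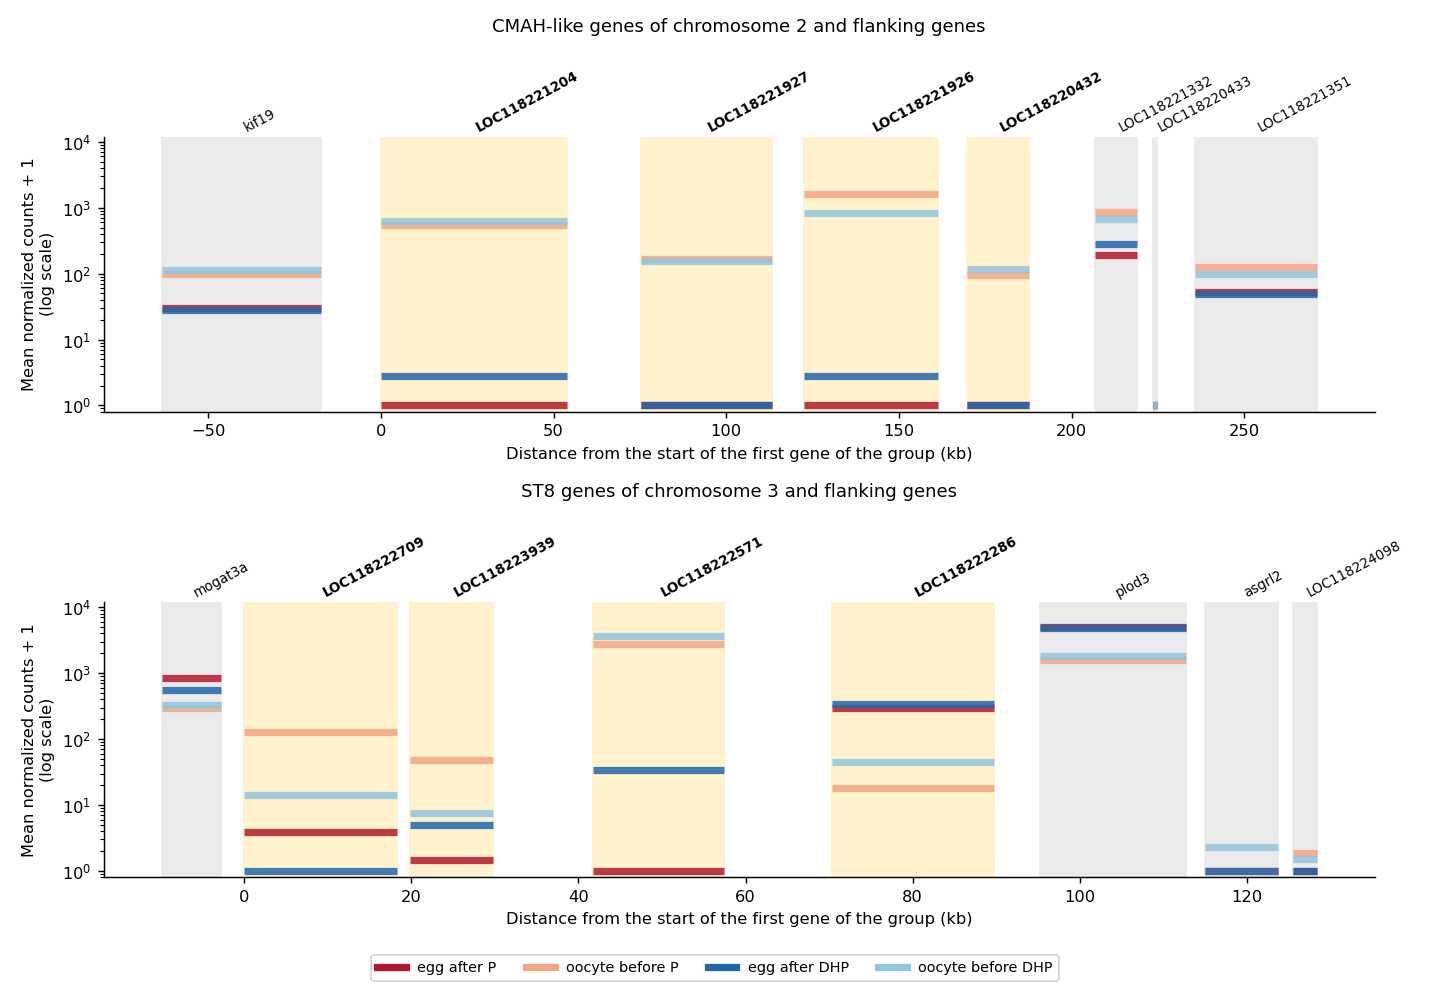
Mean normalized counts plus 1 (log scale) of the CMAH-like genes of chromosome 2 and the ST8 genes of chromosome 3 (yellow) with their neighbours (grey), drawn at their distance in kb from the start of the first gene of the group. Bars at 1 are groups at 0 counts, where egg bars cover each other, and the eggs of LOC118222286 lie above its oocytes while those of LOC118222571 lie below.

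Transport held a pair that went opposite ways. slc17a5, which encodes sialin, the exporter of free sialic acid from lysosomes, averaged 35.5 ± 15.4 normalized counts in eggs after P, against 1198 ± 867.5 in oocytes before P (-5.11 ± 0.60, adjusted p = 0.000110), and 24.8 ± 21.5 in eggs after DHP, against 670.0 ± 228.6 in oocytes before DHP (-4.82 ± 0.67, adjusted p = 0.00240). These values of slc17a5 were -4.37 without library 9 and -5.81 without library 12. LOC118221630, annotated as sialin-like, averaged 1978 ± 194 in eggs after P, against 179 ± 55.1 in oocytes before P (3.44 ± 0.30, adjusted p = 2.9e-05), and 1966 ± 562 in eggs after DHP, against 297 ± 19.8 in oocytes before DHP (2.66 ± 0.35, adjusted p = 0.00202). Of the 53 genes it alone was called higher after both steroids at an adjusted p under 0.01. A further sialin gene (NCBI gene 118233274) was at 0.88 ± 0.26 after P (adjusted p = 0.0147) and 0.53 ± 0.45 after DHP (adjusted p = 0.387). slc35a1, the carrier of the CMP sugar into the Golgi, was at 0.25 ± 0.33 after P and 0.08 ± 0.40 after DHP, with neither called.

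Of 33 sialyltransferase genes other than LOC118222571, 20 were tested. In eggs after P, 4 were higher and 5 lower, and in eggs after DHP none was higher and 5 were lower. Of all genes tested, 17.9% were higher and 22.7% lower after P, and 7.35% higher and 6.22% lower after DHP. The counts after P are near those shares. The ST8 genes of chromosome 3 differed among themselves. LOC118222286, annotated as 8E-like and the next gene after LOC118222571, averaged 291 ± 26.7 normalized counts in eggs after P, against 16.9 ± 18.9 in oocytes before P, and rose (4.04 ± 0.71, adjusted p = 0.00100, and 5.51 without library 5). It averaged 337 ± 130 in eggs after DHP, against 44.0 ± 43.0 in oocytes before DHP (2.85 ± 0.97, adjusted p = 0.0471). The 2 further 8F-like genes of the group had few counts, with 6 counts of LOC118222709 over the eggs after P, against 484 over the oocytes before P, of which 433 came from library 1, and 0 over the eggs after DHP, against 49 over the oocytes before DHP. st8sia4, a polysialyltransferase, fell after P (-4.54 ± 0.62, adjusted p = 0.000249), and was at -2.50 ± 0.56 after DHP (adjusted p = 0.0101), where it was called with the libraries paired (-2.54 ± 0.50, adjusted p = 0.00770, with 8.92% of all genes lower).

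Among the genes of the ST6GALNAC type, which add sialic acid to O-glycans or gangliosides, 3 were called lower after both steroids. LOC118216802 and LOC118219460, both annotated as alpha-N-acetylgalactosaminide alpha-2,6-sialyltransferase 1-like and next to each other on chromosome 2, were among them. Of all genes tested, 22.7% were called lower after P and 6.22% after DHP, and the share lower after both was not counted. LOC118216802 had 1 count over the eggs after P, against 2271 over the oocytes before P (1399-fold lower, 95% counting interval 251 to 55284, adjusted p = 1.45e-05), and 7 counts over the eggs after DHP, against 2831 over the oocytes before DHP (267-fold lower, 130 to 666, adjusted p = 0.00191). The 1 count after P was in library 6, without which it was at least 306-fold lower, and without library 2 it was 889-fold lower. All 7 counts after DHP were in library 8, without which it was at least 417-fold lower, and without library 4 it was 169-fold lower. LOC118219460 was at -7.89 ± 0.86 after P (adjusted p = 7.76e-05) and -6.36 ± 1.09 after DHP (adjusted p = 0.00404). From summed counts it was 231-fold lower after P, 151-fold without library 6 and 817-fold without library 10, and 71.0-fold lower after DHP, and 808-fold without library 4. st6galnac6 had 1 count over the eggs after P, against 148 over the oocytes before P (91.2-fold lower, 16.1 to 3625, adjusted p = 0.000915), and was at -5.96 ± 1.12 after DHP (adjusted p = 0.00541). Its 1 count after P was in library 2, without which it was at least 19.3-fold lower, and without library 6 it was 59.8-fold lower. All 5 counts after DHP were in library 8, without which it was at least 72.7-fold lower, and the fitted value was -5.26 without library 3 and -5.34 without library 4. Its neighbour st6galnac4 was not called, with 0.49 ± 0.32 after P (adjusted p = 0.223) and -0.17 ± 0.54 after DHP (adjusted p = 0.823).

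The alpha-2,3-sialyltransferase genes included 3 that rose after P with TMM scaling, none of them called with library totals. st3gal3b averaged 1898 ± 609 normalized counts in eggs after P, against 666 ± 158 in oocytes before P (1.49 ± 0.32, adjusted p = 0.00296). st3gal8 averaged 1163 ± 464 in eggs after P, against 289.8 ± 44.1 in oocytes before P (1.98 ± 0.34, adjusted p = 0.000937). LOC118235090, annotated as an alpha-2,3-sialyltransferase 4-like gene, rose after P (1.41 ± 0.36, adjusted p = 0.00732). After DHP these 3 genes were at 1.43 ± 0.42, 1.48 ± 0.46 and 1.14 ± 0.39, and none was called (adjusted p = 0.0274, 0.0340 and 0.0487). st3gal3a was at -3.76 ± 1.04 after P (adjusted p = 0.0113) and had 3 counts over the eggs after DHP, against 148 over the oocytes before DHP (32.6-fold lower, 10.9 to 160.0, adjusted p = 0.0151). LOC118233925 (0.87 ± 0.38 after P and 0.45 ± 0.60 after DHP) and st8sia1 (-0.38 ± 0.44 and -0.38 ± 0.84) were not called either.

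**Figure D5:**
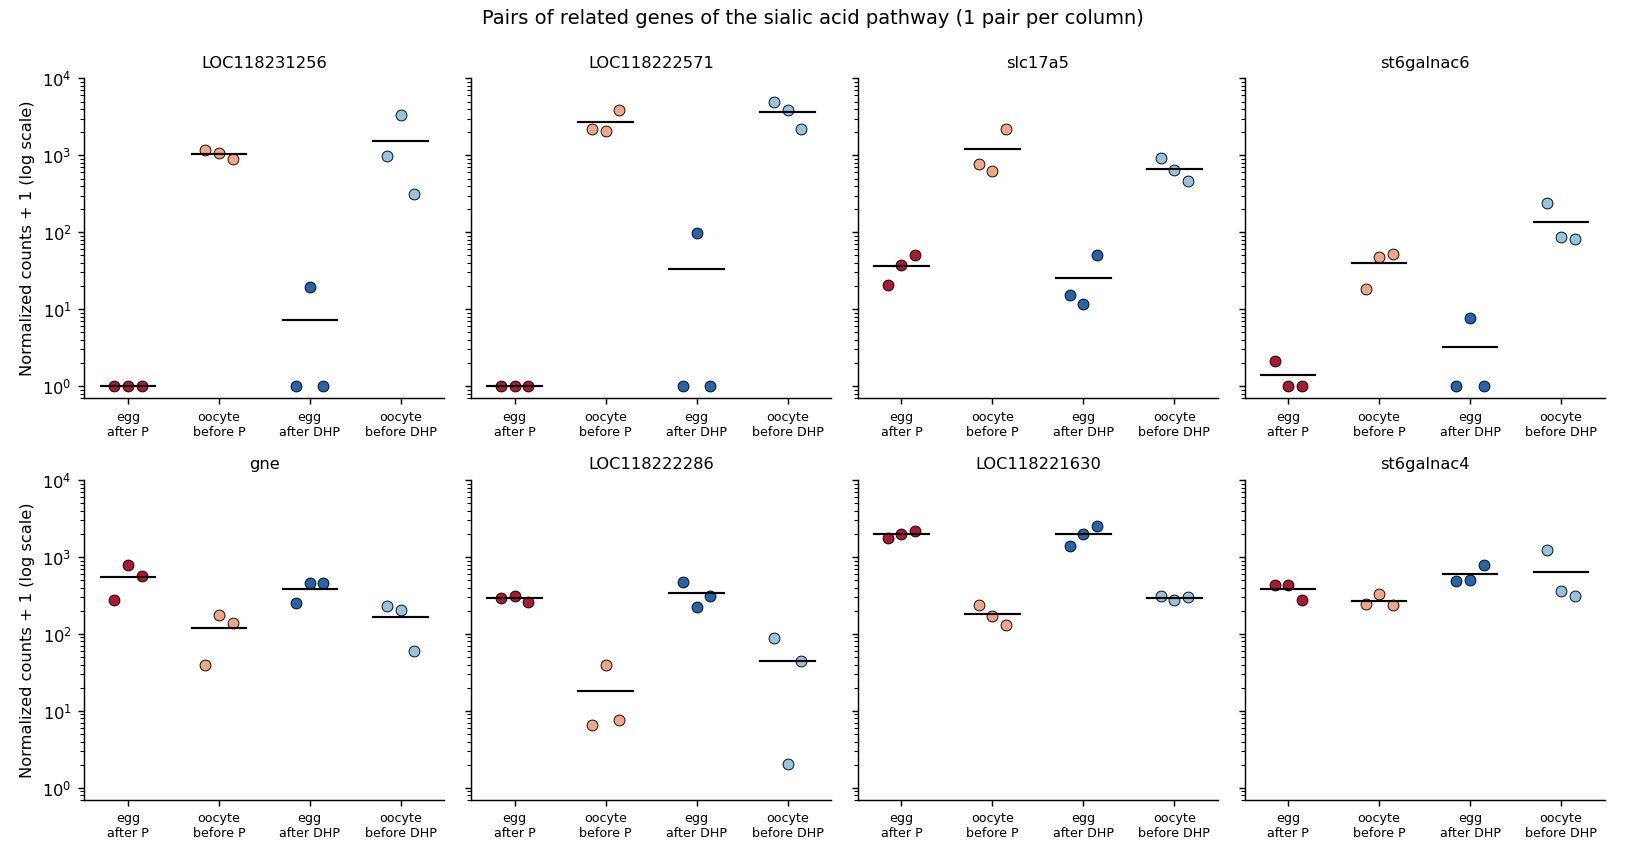
Normalized counts plus 1 (log scale) of 4 pairs of related genes in each library, 1 pair per column, with a line at the group mean. In each column the upper gene is lower in eggs than in oocytes, while gne, LOC118222286 and LOC118221630 in the lower row have higher means in eggs and st6galnac4 overlaps between eggs and oocytes.

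Besides npl, 5 genes of sialic acid removal were listed and 4 tested. neu3.1, a membrane sialidase, fell after P (-3.02 ± 0.58, adjusted p = 0.00165, and -3.73 without library 2) and was at -1.99 ± 0.82 after DHP (adjusted p = 0.0871). ctsa, whose product protects lysosomal sialidase, fell after P (-1.89 ± 0.41, adjusted p = 0.00319) and was at -1.07 ± 0.58 after DHP (adjusted p = 0.181). neu1, that lysosomal sialidase, was at -0.83 ± 0.47 after P and -0.65 ± 0.51 after DHP, with no call. si:ch211-122f10.4, annotated as lysosomal protective protein, was at -0.18 ± 0.46 and -1.41 ± 0.43, also with no call. Of the 4, 2 were called lower and none higher after P, against 22.7% lower and 17.9% higher of all genes. After DHP none was called, against 6.22% lower and 7.35% higher of all genes.

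Between eggs after P and eggs after DHP, 27 of the 53 other genes could be tested and none was called, as for all genes (0%, edgeR). None had an unadjusted p under 0.05, and DESeq2 and limma-voom called none, where DESeq2 called 0.0683% of all genes. The log2 differences ran from -0.83 for nanp to 1.23 for LOC118209758. All 27 intervals of limma-voom held 0, but only 4 lay within 1 log2 unit of 0 on both sides, and the intervals reached a median of 1.15 to each side of the estimate. The change from oocyte to egg was not called different between the steroids for any of 42 genes tested (edgeR, with 2 at an unadjusted p under 0.05), nor by DESeq2, which called 0.0178% of all genes, or limma-voom. Between oocytes before DHP and oocytes before P, none of 41 genes tested was called by edgeR, DESeq2 or limma-voom. An unadjusted p under 0.05 in edgeR was found for 5, all sialyltransferase genes, against 494 of all 16153 genes tested. Of the named genes, LOC118221630, LOC118233925 and st6galnac6 lay higher without overlap in oocytes before DHP, and ctsa lower. Over all genes, 7.84% did not overlap between these groups in either direction.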

How the data were processed

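The count values, as deposited by the authors, are fragments per gene. Per the methods and the submitters' processing notes, reads of stranded poly(A) libraries were aligned to fAngAng1.pri with TopHat2 2.0.13, secondary alignments removed with SAMtools 1.2 and fragments counted with HTSeq 0.6.1p1. The strand setting and the handling of reads that align at several places are stated in no source used here. Fold changes and p-values from DESeq in the same tables are the authors' own comparisons and were not used. The unused columns of per-sample values number 0, as do rows with no gene name.

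The labels number the replicates, but the columns carry library numbers. Libraries were paired by their order within a treatment, as oocytes and eggs came from the same females: the deviations of paired libraries from their group means had r from 0.268 to 0.405 over 16891 genes, and other combinations -0.290 to -0.0637. The labels call the 3 libraries of a group biological replicates, and p-values measure the spread between them.

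The quasi-likelihood test of edgeR 4.0.16 (TMM, R 4.3.3) was run in fits of 6 libraries, or of all 12 for the difference between steroids, after filterByExpr (minimum count of 10, minimum total of 15), with a Benjamini-Hochberg adjusted p under 0.01 as called. limma 3.58.1 and DESeq2 1.42.0 were alternatives, beside RLE scaling, library totals, other filters, an adjusted p under 0.05, the pairing and each library left out. Tables were made with Python 3.11.15 and pandas 2.3.3. The fits were also run on simulated counts in which few genes changed, in random directions. These data differ from that setting, so nothing is read from it. A group at 0 counts is given a bound from 3 counts over the group, and intervals are exact at 95%.

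The 5 genes and all gene lists were chosen with earlier results of these data known. Lists were set from names and products, and 4 genes matched by letters only (endosialin and macrosialin) were left out. Pathway genes that averaged at least 50 normalized counts in a group are named, and in other lists the gene with the smallest p per direction. All 29999 gene IDs matched the RefSeq table.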

Additional observations from a re-analysis of the deposited data

Results flagged for a closer look

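npl was separated in opposite directions after the steroids. All 3 egg libraries after P lay below all 3 oocyte libraries before P. All 3 egg libraries after DHP lay above all 3 oocyte libraries before DHP. Among all genes tested, 36.7% lay lower without overlap in eggs after P and 23.4% higher in eggs after DHP. The share of genes that did both, as npl did, was not counted and cannot be taken from these 2 shares. The log2 fold change of npl was -0.37 after P and 1.14 after DHP, beside medians of -0.26 and -0.20 over all genes tested. The difference between the changes was -1.57 ± 0.45 on the log2 scale (edgeR). No test is given, since npl was chosen with these changes known. The difference was -1.71 to -1.32 with 1 library left out and -1.54 with the libraries paired.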

How the results depend on the processing

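The 4 genes near 0 in eggs were at 0 counts in every egg library but library 8. No scaling or left-out library could thus reverse their direction, and only the sizes are given here. The values of the 4 genes after P are bounds, as eggs after P held 0 counts. Library totals put LOC118231256 at least 1438-fold and LOC118222571 at least 3558-fold lower after P, and LOC118222571 182-fold lower after DHP. With 1 library left out, the bounds after P ran from 537 to 892 for LOC118231256 and 262 to 575 for LOC118221204. They ran from 520 to 1735 for LOC118221926 and 1327 to 2382 for LOC118222571. After DHP the values ran from 108 to at least 721, 211 to 409, 271 to 543 and 72.3 to at least 1883 in the same order. Without library 8 they are bounds as well, since no egg count remained. The log2 fold change of npl was -1.12 after P and 0.53 after DHP with library totals and -0.49 after P with a minimum count of 50, and ran from -0.43 to -0.31 after P, 0.93 to 1.29 after DHP and -1.76 to -1.45 between eggs with 1 library left out. Between oocytes before DHP and oocytes before P, where nothing was called, LOC118231256 was at -0.072 with limma-voom, and with 1 library left out it ran from -0.69 to 1.03, LOC118221204 from -0.46 to 0.50 and LOC118221926 from -1.79 to 0.24. The fitted difference between steroids, which for these genes depends on the counts of library 8, ran from -6.19 to 0.56 for LOC118231256, -4.37 to 0.16 for LOC118221204 and -8.22 to 0.43 for LOC118222571. The number of other pathway genes called ran from 13 to 19 after P and from 3 to 9 after DHP with 1 library left out. In the same fits, calls of all genes ran from 1970 to 2445 higher and 2497 to 2869 lower after P. After DHP they ran from 65 to 976 higher and 57 to 961 lower. At an adjusted p under 0.05, 18 other pathway genes were called after DHP, with the share of all genes at that threshold not counted. Of genes that were not called, library totals put slc35a1 at -0.51 after P and -0.55 after DHP, st6galnac4 at -0.26 after P, and LOC118233925 at -0.20 and the sialin gene 118233274 at -0.092 after DHP. slc35a1 was at -0.033 after DHP with a minimum count of 50, and st6galnac4 at 0.042 with limma-voom. With 1 library left out, si:ch211-122f10.4 ran from -0.83 to 0.12 and slc35a1 from -0.045 to 0.42 after P, and after DHP LOC118233925 ran from -0.27 to 0.99, slc35a1 from -0.25 to 0.35, st6galnac4 from -0.54 to 0.78 and st8sia1 from -1.55 to 0.45. With the libraries paired (replicate block), 22 other pathway genes were called after P and 12 after DHP. Of all genes, the paired fits called 3380 higher and 4084 lower of 15348 after P, and 1381 and 1351 of 15149 after DHP. In these fits st6galnac4 was at 0.10 after DHP, and apart from renbp and st8sia4 no call of a named gene changed. Library totals also ended the calls of gne, LOC118235090, st3gal3b and st3gal8 after P, so that 2 genes were higher and 16 lower, and called st3gal3a after both steroids and st8sia4 and si:ch211-122f10.4 after DHP, all lower. All genes moved the same way with library totals, to 1295 higher and 5205 lower of 15348 after P. After DHP they moved to 490 higher and 2105 lower of 15149. The cause of these shifts was not tested.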

Other observations

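Genes that supply or receive sialic acid were counted beside the pathway, as a description. Of all genes tested, 17.9% were called higher and 22.7% lower in eggs after P, and 7.35% higher and 6.22% lower in eggs after DHP, and the counts of each list stand beside these shares. Of the hexosamine pathway, which makes UDP-N-acetylglucosamine, 10 of 13 genes were tested, and 4 were lower and none higher in eggs after P (median log2 fold change -1.23), while none was called after DHP (-0.50). LOC118228095, annotated as glucosamine-6-phosphate isomerase 2, had the smallest p among those below 0, with -2.11 ± 0.36 after P (adjusted p = 0.000876) and -1.78 ± 0.45 after DHP (adjusted p = 0.0153). On the side above 0, nagk was at 0.45 ± 0.35 after P and uap1 at 0.32 ± 0.35 after DHP, neither called.

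Of the genes that build the core of O-glycans, 25 of 33 were tested after P, with 3 higher and 3 lower (median -0.25), and 22 after DHP, with 1 higher and none lower (median -0.66). c1galt1c1, the chaperone of the enzyme that makes the core on which sialic acid is placed, rose after both steroids. It averaged 3346 ± 752 normalized counts in eggs after P, against 906 ± 158 in oocytes before P (1.86 ± 0.27, adjusted p = 0.000328), and 3092 ± 301 in eggs after DHP, against 1154 ± 153 in oocytes before DHP (1.35 ± 0.28, adjusted p = 0.00766). LOC118221104, a polypeptide N-acetylgalactosaminyltransferase 2 gene, fell after P (-1.58 ± 0.32, adjusted p = 0.00226), and LOC118213188 was at -3.04 ± 0.77 after DHP (adjusted p = 0.0162).

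Of the ganglioside core, 5 of 7 genes were tested (median 0.55 after P and 0.94 after DHP). b4galt5, which makes lactosylceramide in mammals, rose after P (2.45 ± 0.37, adjusted p = 0.000419) and was at 1.82 ± 0.41 after DHP (adjusted p = 0.0103). LOC118206309, a ceramide glucosyltransferase-like gene, was at -1.35 ± 0.43 after P (adjusted p = 0.0215) and -1.28 ± 0.52 after DHP (adjusted p = 0.0811).

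Receptors that bind sialic acid were rarely counted: of 67 listed genes, 3 were tested after P and 5 after DHP, with 1 lower each (medians -1.22 and -0.61). That gene, LOC118230095, annotated as L-selectin-like, had no count in eggs after P and a level of 44.9 ± 24.2 in oocytes before P, and averaged 1.90 ± 2.24 in eggs after DHP, against 86.8 ± 67.1 in oocytes before DHP (adjusted p = 0.000861 and 0.00944). Of the markers of blood and vessels, 3 were higher and 8 lower among 18 tested after P, and 2 higher and 3 lower among 18 after DHP. Of the germ cell markers, 1 was higher and 5 lower among 11 after P, and 1 higher and 3 lower among 11 after DHP.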
